A study of Mus musculus with 4 samples.

Results

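Coagulation and fibrinolysis genes are described here across the cells of the mouse heart. The set has 9 genes, F3, F10, Tfpi, Thbd, Procr, Vwf, Plat, Plau and F13a1, each taken by its symbol from the 32285 genes of the count tables. All 9 had a row of counts in every library. The data are droplet single-cell RNA sequencing of whole heart, with 1 library for each of 4 groups of mice. The first group, called CLP plus stimulation here, is labelled as sepsis with low-level tragus stimulation, in which a current is passed through the skin of the ear to reach a vagal branch. The second, called CLP, had a cecal ligation and puncture operation, a mouse model of sepsis. The other groups are a sham and a control, and no label says how they differ. The sources used here give no strain, age, animal number or sampling time, and no allele or drug is named for any group.

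Blood clotting begins when tissue factor, the product of F3, meets plasma factor VII and the pair activates factor X, the product of F10. Tissue factor pathway inhibitor (Tfpi) blocks that step, while thrombomodulin (Thbd) and the endothelial protein C receptor (Procr) turn thrombin from a clotting enzyme into an activator of the anticoagulant protein C. Von Willebrand factor (Vwf) tethers platelets to the vessel wall, the A subunit of factor XIII (F13a1) cross-links fibrin, and the tissue and urokinase activators (Plat and Plau) convert plasminogen into plasmin, which dissolves fibrin. In sepsis this system is known to shift towards clotting, with endothelium and myeloid cells among its sources.

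Promoter sequence is shown for F3 and F10, the genes at the head of the pathway, whose transcripts are described first. In the RefSeq table for GRCm38.p6, 5 of the 9 genes had a promoter entry, and the 250 bases before the annotated start are printed 5′ to 3′ on the gene's strand. F3 lies at chr3:121723287-121723536 and F10 at chr8:13037058-13037307, both on the plus strand. Capitals mark matches to letters that were searched on both strands, TGANTCA for AP-1, GGAAGT for ETS factors and TTGCNNAA for C/EBP.
F3: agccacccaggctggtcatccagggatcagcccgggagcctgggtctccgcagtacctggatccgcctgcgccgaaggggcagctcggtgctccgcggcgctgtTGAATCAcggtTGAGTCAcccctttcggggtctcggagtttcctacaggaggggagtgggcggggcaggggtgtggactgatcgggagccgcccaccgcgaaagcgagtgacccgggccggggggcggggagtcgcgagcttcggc
F10: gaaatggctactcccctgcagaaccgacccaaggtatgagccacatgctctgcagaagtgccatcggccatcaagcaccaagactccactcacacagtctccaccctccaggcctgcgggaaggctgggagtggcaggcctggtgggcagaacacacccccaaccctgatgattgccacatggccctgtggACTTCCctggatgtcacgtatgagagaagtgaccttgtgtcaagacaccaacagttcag
The F3 window holds 2 AP-1 matches, TGAATCA at -146 to -140 and TGAGTCA at -135 to -129, counted back from -1 at the base before the start. F10 has a match on the other strand to the ETS letters, ACTTCC at -59 to -54. The matches do not overlap. Of 32817 promoter windows of this length, 6.75% held the AP-1 letters, 19.7% the ETS letters and 9.57% the C/EBP letters. Such matches describe the sequence only.

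After filtering, 8023 cells were kept in CLP plus stimulation, 7738 in CLP, 8269 in sham and 13569 in control, with medians of 4917, 5486.5, 5327 and 3004 UMIs per cell. A UMI is a tag that marks 1 captured RNA molecule. Pairs of libraries shared 15 to 46 cell barcodes. A cell joined a class when at least 3 of that class's markers were detected and their detected share led the next class by at least 0.2, and none of the 9 genes was a marker. Classes are therefore gates on markers and are called by their names for short. The CLP plus stimulation library stands apart. Only 61.6% of its cells passed a gate, against 76.4% in CLP, 84.2% in sham and 80.3% in control, and endothelial cells made up 5.06% of it, against 21.2%, 16.8% and 19.3%. The cluster with the largest share of a class was the same in sham and control for the 4 classes given here and another one in both septic libraries, which shared theirs for fibroblasts and neutrophils. Of the endothelial cells, 77.6% of those in CLP plus stimulation lay in cluster 24, 80.9% of those in CLP in cluster 8, and 69.3% in sham and 62.4% in control in cluster 1. The leading clusters were 5, 7, 2 and 2 for macrophages (cluster 2 with 46.7% of those in sham and 42.7% in control), 3, 3, 0 and 0 for fibroblasts, and 16, 16, 26 and 26 for neutrophils, in the order CLP plus stimulation, CLP, sham and control.

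The genes were highest in different classes. The 8 classes with at least 20 cells in every library were ranked by their mean level over the libraries. The highest mean was in fibroblasts for F3 and Procr, in pericytes for Tfpi and Plat, and in endothelial cells for Thbd and Vwf. It was in macrophages for Plau and F13a1, and in neutrophils for F10. Single libraries could differ from this order. In CLP plus stimulation, Thbd was higher in fibroblasts than in endothelial cells, and Tfpi was higher in fibroblasts than in pericytes. In sham and control, Procr was higher in endothelial cells than in fibroblasts. In CLP and sham, F10 was higher in monocytes than in neutrophils. Levels are a gene's UMIs scaled to counts per 1000000 UMIs of the class (CPM), and parentheses hold 95% intervals for counting error. With 1 library per group there is no replicate spread, and differences are given without a test or p-value. A difference is called past 2-fold where the log2 ratio of CPM (prior count 0.5) is at least 1 or at most -1 and the gene has at least 20 counts over the 2 libraries.

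**Figure D1:**
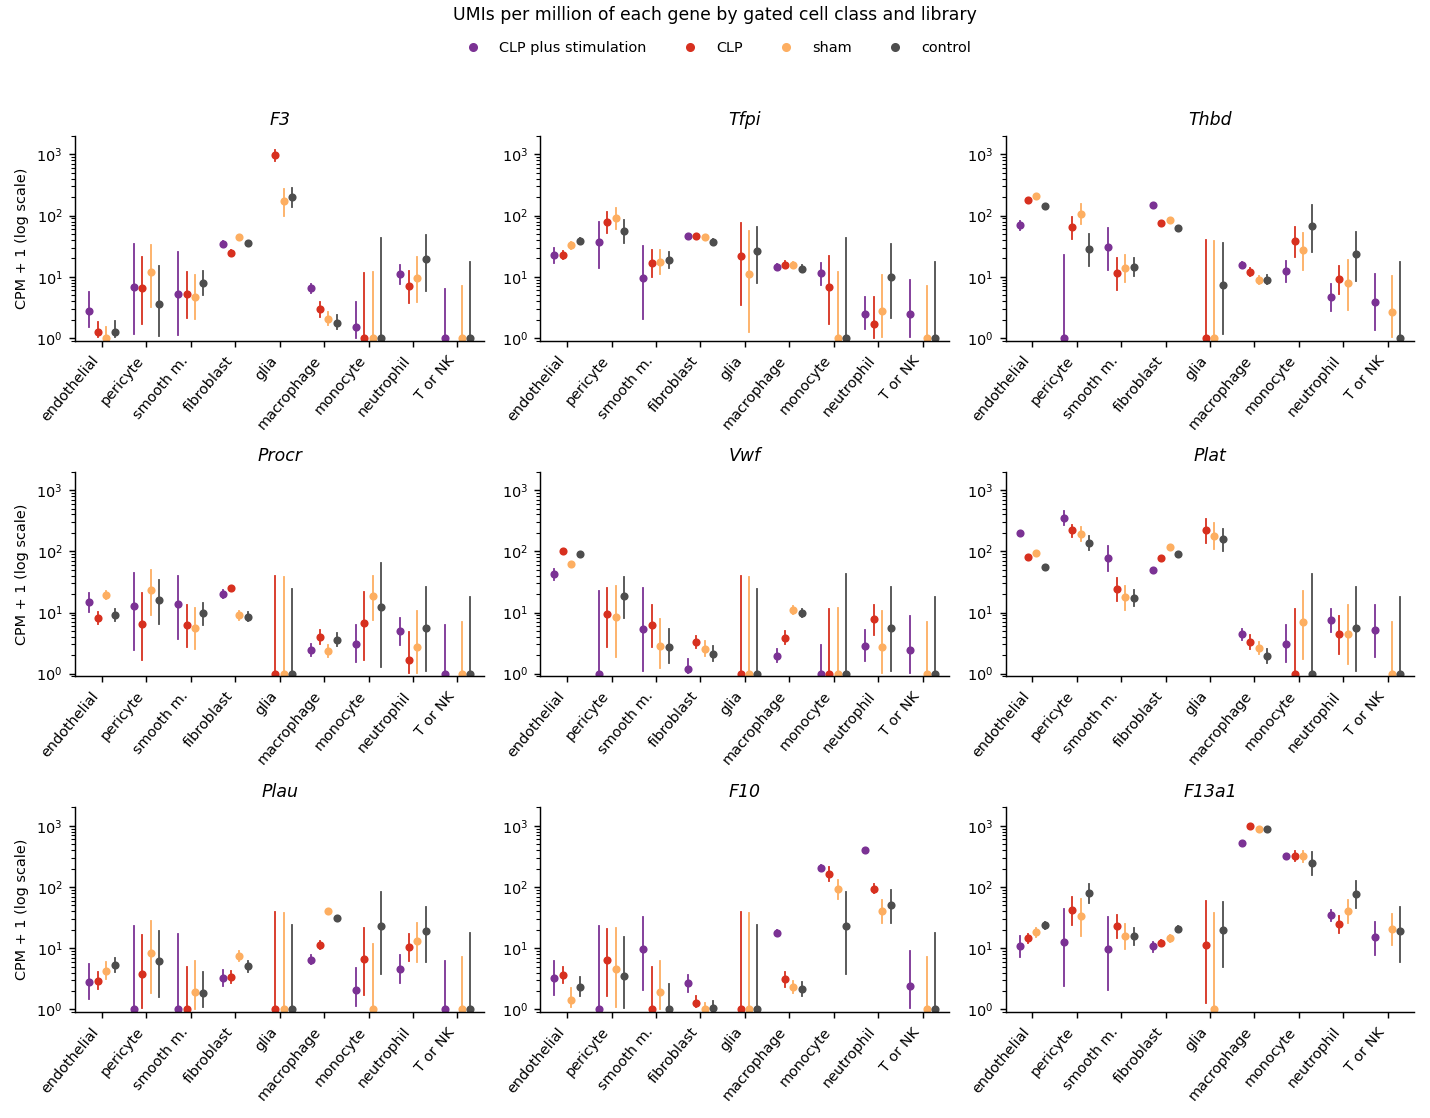
Level of each gene in 9 gated cell classes, as CPM + 1 on a log axis, with 1 point per library and bars for the 95% Poisson counting interval; a class with under 20 cells in a library is not drawn. F10 reached 399 CPM in neutrophils of CLP plus stimulation, and F13a1 reached 981 CPM in macrophages of CLP.

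At most 5 of the 9 genes passed 2-fold in a comparison of these 3 classes. In endothelial cells, 2 of 8 measured genes passed in CLP over sham (F10 higher, Procr lower), where 11.9% of all genes passed. In CLP plus stimulation over CLP, 3 of 8 passed (Plat higher, Thbd and Vwf lower), against 28.0% of all genes. In CLP plus stimulation over sham, 2 of 7 passed (Plat higher, Thbd lower), against 31.5%. In fibroblasts, 2 of 8 passed in CLP over sham (Procr higher, Plau lower), with 11.3% of all genes past 2-fold. CLP plus stimulation over CLP had 2 of 9 (F10 higher, Vwf lower; 21.9% of all genes), and CLP plus stimulation over sham had 4 of 8 (Procr higher, Vwf, Plat and Plau lower; 32.2%). All 9 were measured in macrophages, and 3 passed in CLP over sham (Procr higher, Vwf and Plau lower), against 23.3% of all genes. The count was 4 in CLP plus stimulation over CLP (F3 and F10 higher, Procr and Vwf lower; 17.5%) and 5 in CLP plus stimulation over sham (F3, Plat and F10 higher, Vwf and Plau lower; 30.2%). For sham over control, 1 of 7 passed in endothelial cells (Procr, higher; 2.40% of all genes), 0 of 8 in fibroblasts (2.14%) and 0 of 9 in macrophages (3.19%). Over all cells together, where the make-up of cells enters, 2 of 9 passed in CLP over sham (14.3%), 2 in CLP plus stimulation over CLP (31.1%), 3 in CLP plus stimulation over sham (35.5%) and 1 in sham over control (3.85%). Many of these ratios rest on levels of a few CPM. With log2 of CPM + 5, 16 ratios past 2-fold came inside it: F10 in endothelial cells and fibroblasts, F3 and Plat in macrophages, Plau in fibroblasts, Vwf in fibroblasts and macrophages except for CLP plus stimulation over sham in macrophages, and all of Procr except CLP over sham in fibroblasts. In CLP over sham the share of members past 2-fold was above that of all genes in all 3 classes, and in CLP plus stimulation over CLP it was above it in endothelial cells and macrophages and close to it in fibroblasts. In CLP plus stimulation over sham it was above it in fibroblasts and macrophages and below it in endothelial cells. With so few genes in a count these shares single out no class, and with log2 of CPM + 5 only 1 of 9 macrophage genes passed in CLP over sham and 1 of 9 in CLP plus stimulation over CLP. The median log2 ratio of the measured members in CLP over sham was -0.30 in endothelial cells, -0.24 in fibroblasts and 0.49 in macrophages, beside -0.15, -0.09 and -0.25 for all genes measured.

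**Figure D2:**
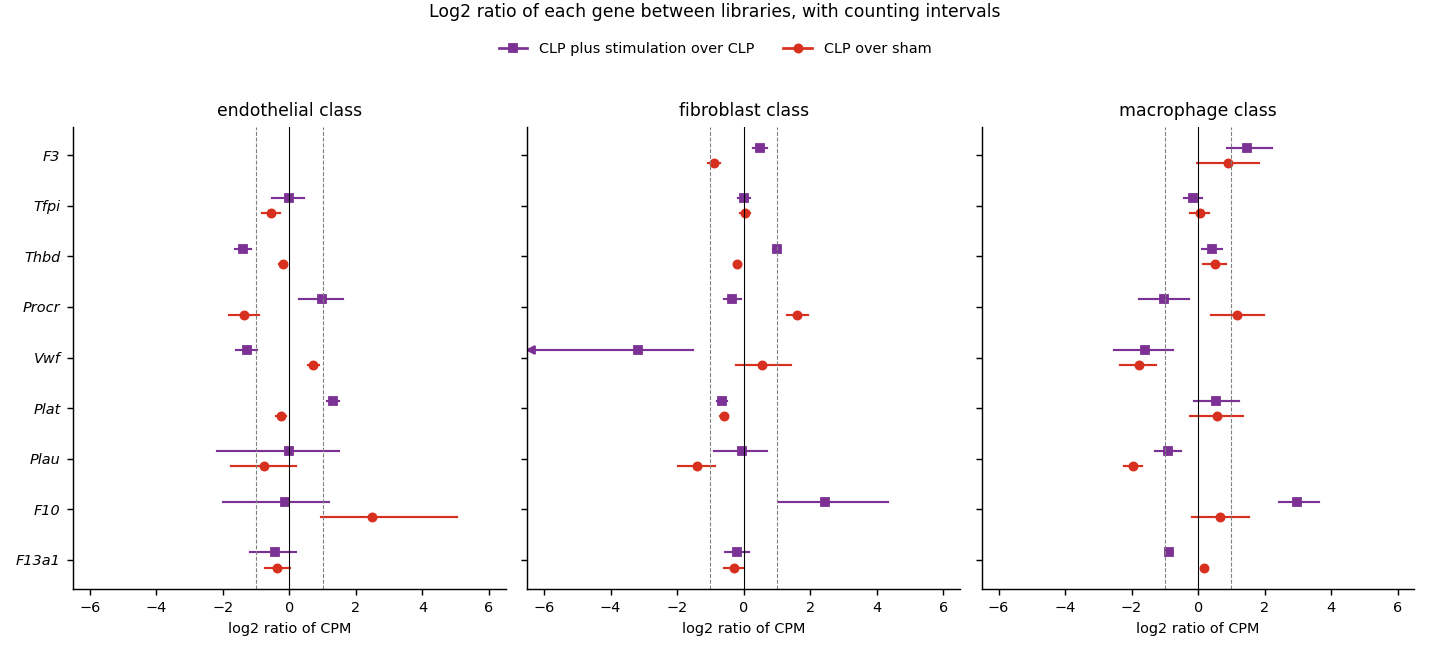
Log2 ratio of CPM for each gene with at least 20 counts over both libraries, in endothelial cells, fibroblasts and macrophages; squares show CLP plus stimulation over CLP, circles show CLP over sham, bars are 95% counting intervals, an arrowhead marks a bar that runs off the axis, and dashed lines mark 2-fold. Procr in CLP over sham lies at -1.36 in endothelial cells and at 1.60 in fibroblasts. The endothelial value was -0.79 without 1 sham cell that held 45 of the 133 sham UMIs.

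F3 (chr3:121723537-121735048, plus strand), which encodes the cell-surface trigger of clotting, was mainly a fibroblast transcript. Fibroblasts had 33.5 CPM in CLP plus stimulation, 23.8 in CLP, 44.0 in sham and 34.7 in control, and held 52.8%, 68.8%, 87.8% and 83.8% of all F3 UMIs of their library. The log2 ratio of CLP over sham was -0.88 (-1.07 to -0.70), inside 2-fold. Over all cells the level was nearly flat, at 12.3, 11.6, 13.1 and 12.3 CPM. Endothelial cells were close to empty, with 4, 2, 0 and 2 UMIs, and the 0 in sham is for 1388 cells. The glial class, cells with Schwann markers, had the highest F3 level in every library but is small. It had 372 CPM in CLP plus stimulation (9 UMIs in 6 cells), 977 in CLP (94 UMIs in 28 cells), 170 in sham (17 UMIs in 27 cells) and 201 in control (32 UMIs in 67 cells). The CLP level stood above the others, and its log2 ratio to sham was 2.49 (1.76 to 3.36). In CLP, 75.0% of glial cells had an F3 UMI, against 44.4% in sham, with median depths of 3439 and 3293 UMIs, while F3 was at 0 in T or NK cells of all 4 libraries (median depths 3028 to 5239). The summed glial markers in this class were 4010 CPM in CLP and 5690 in sham, and the summed fibroblast markers 1444 and 4498; their part in the difference was not tested. In macrophages F3 was low, with 5.48 CPM in CLP plus stimulation, 1.93 in CLP, 1.04 in sham and 0.774 in control. The CLP plus stimulation level was past 2-fold over CLP, at 1.48 (0.86 to 2.21), and over sham, at 2.37 (1.68 to 3.19). Summed fibroblast markers in the same macrophages were 95.9, 127, 109 and 107 CPM, and their part in the F3 values was not tested.

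F10 (chr8:13037308-13056676, plus strand), the plasma factor that liver is known to supply, was found here in neutrophils and monocytes. Neutrophils had 399 CPM in CLP plus stimulation, 93.2 in CLP, 39.7 in sham and 50.04 in control. The CLP plus stimulation library stood far above the others, and sham and control had overlapping intervals. The log2 ratio was 2.09 (1.84 to 2.36) for CLP plus stimulation over CLP, 3.30 (2.74 to 3.99) for CLP plus stimulation over sham and 1.21 (0.59 to 1.94) for CLP over sham. Of all genes measured in neutrophils, 25.8%, 37.6% and 26.0% passed 2-fold in those comparisons. An F10 UMI was seen in 48.6% of 500, 25.3% of 229, 7.50% of 200 and 6.67% of 135 neutrophils, whose median depths were 4142.5, 5317, 2611 and 1484 UMIs. Thinned to 1000 UMIs per cell, which left 404, 212, 177 and 111 cells, the shares were 30.2%, 10.8%, 3.39% and 5.41%. In T or NK cells, 1 of 120 cells of CLP plus stimulation had an F10 UMI (0.833%, median depth 4655 UMIs), and none of 12, 72 and 67 cells did in CLP, sham and control. Monocytes had 204 CPM in CLP plus stimulation (108 cells), 162 in CLP (33 cells), 91.1 in sham (36 cells) and 22.5 in control (2 UMIs in 22 cells). Between CLP plus stimulation and CLP that difference was inside 2-fold, at 0.32 (-0.08 to 0.75), and it was 1.14 (0.63 to 1.74) over sham, where 33.4% of all genes passed.

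The higher F10 of CLP plus stimulation was also seen within clusters that both septic libraries share. Cluster 16, which holds most gated neutrophils of both, had 468 CPM (442 to 494) in CLP plus stimulation and 92.9 (78.9 to 109) in CLP. Cluster 11, left unnamed by the markers, had 175 CPM (166 to 185) and 84.0 (72.3 to 97.0). Macrophages were far lower, with 16.7 CPM in CLP plus stimulation, 2.09 in CLP, 1.31 in sham and 1.13 in control, and the log2 ratio to CLP was 2.97 (2.42 to 3.63). In CLP plus stimulation, 246 of the 319 macrophage UMIs lay in cells with none of the resident markers Timd4, Lyve1 and Folr2. Those cells had 27.5, 3.02, 2.94 and 1.28 CPM, and cells with at least 2 of those markers had 3.03, 0.247, 0.915 and 0.587 CPM. Summed neutrophil markers in macrophages were 1056 CPM in CLP plus stimulation, 783 in CLP, 159 in sham and 95.4 in control, and their part in the macrophage values was not tested. In fibroblasts, with 16, 5, 0 and 1 F10 UMIs, CLP plus stimulation passed 2-fold over CLP. In endothelial cells, with 5, 23, 3 and 11 UMIs, CLP passed over sham. Summed neutrophil markers were 399, 314, 59.3 and 18.8 CPM in fibroblasts and 444, 413, 93.2 and 27.9 CPM in endothelial cells, and their part in these F10 counts was not tested. Over all cells F10 was at 58.6 CPM in CLP plus stimulation, 7.95 in CLP, 2.94 in sham and 1.31 in control, while neutrophils were 6.23%, 2.96%, 2.42% and 0.99% of the cells.

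**Figure D3:**
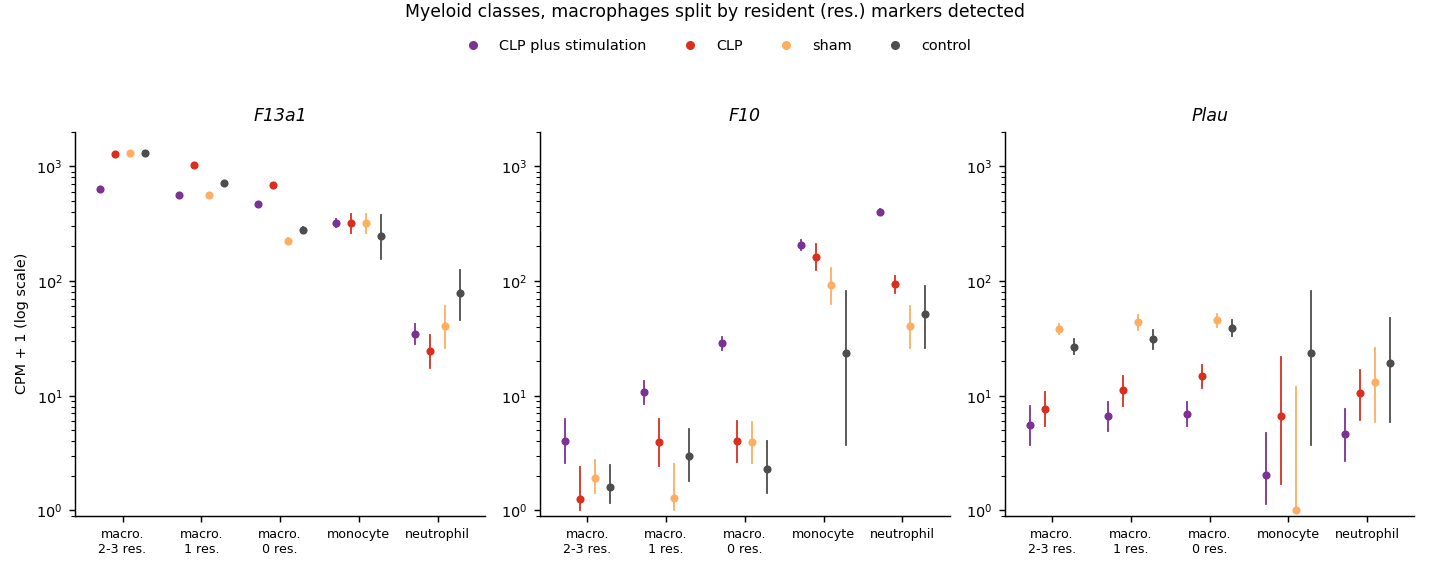
F13a1, F10 and Plau in myeloid classes as CPM + 1 on a log axis, with macrophages split by how many of 3 resident markers (Timd4, Lyve1, Folr2) a cell had; points are libraries and bars are 95% Poisson counting intervals. In macrophages with none of the markers F13a1 is at 463 CPM in CLP plus stimulation and 686 in CLP, above 221 in sham and 280 in control.

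Tfpi (chr2:84432855-84476775, minus strand), the inhibitor of the tissue factor step, varied little in fibroblasts and macrophages. In fibroblasts, which held 41.6% to 55.9% of its UMIs, it was at 45.1 CPM in CLP plus stimulation, 44.8 in CLP, 43.8 in sham and 36.7 in control. The log2 ratio was 0.03 (-0.12 to 0.19) for CLP over sham and 0.01 (-0.16 to 0.18) for CLP plus stimulation over CLP, so the intervals lie within 0.2 log2 units of equal. Endothelial levels were 21.4, 21.8, 31.9 and 37.1 CPM, inside 2-fold in all 4 comparisons. Pericytes, the mural cells of small vessels, had 35.6 CPM in CLP plus stimulation (6 UMIs in 65 cells), 77.3 in CLP, 91.2 in sham and 55.9 in control. The pericyte value of CLP plus stimulation was past 2-fold below CLP, at -1.03 (-2.68 to 0.18), where 18.9% of all genes passed, and below sham, at -1.27 (-2.93 to -0.04), where 23.8% passed. The first interval includes 0 and the second reaches nearly to it. Macrophages stayed between 12.6 and 14.8 CPM in all 4 libraries.

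Thbd (chr2:148404466-148408188, minus strand), the thrombin receptor that starts protein C activation, differed in opposite directions in endothelial cells and fibroblasts of CLP plus stimulation. Endothelial cells had 68.6 CPM in CLP plus stimulation, 181 in CLP, 207 in sham and 144 in control. The stimulated library was lowest, at -1.39 (-1.65 to -1.16) over CLP and -1.59 (-1.84 to -1.35) over sham, and CLP over sham was inside 2-fold at -0.19 (-0.30 to -0.09). The same held in the capillary subclass, with 72.5, 173, 189 and 130 CPM, and in the arterial subclass, with 14.0 (2 UMIs in 20 cells), 122, 175 and 136 CPM. The small endocardial subclass had 228 CPM in CLP plus stimulation (8 UMIs in 5 cells), 293 in CLP, 444 in sham and 183 in control, so the stimulated library was not lowest there. Fibroblasts had 147 CPM in CLP plus stimulation, 73.9 in CLP, 84.4 in sham and 62.5 in control. CLP plus stimulation over CLP came to 0.99 (0.88 to 1.10), just inside 2-fold. It was past 2-fold with TMM factors (1.21), median-of-ratios factors (1.23), thinning to 1000 UMIs (1.07) and classes from clusters (1.04). Among fibroblasts, cells with adventitial markers had 255, 113, 119 and 90.2 CPM and cells with none of them 84.2, 19.8, 18.9 and 24.9 CPM, so CLP plus stimulation was highest in both, by 1.18 (1.02 to 1.33) and 2.07 (1.65 to 2.54) over CLP. Cells with adventitial markers were 192 of 1144 fibroblasts in CLP plus stimulation and 860 of 1925 in CLP. The part of this make-up in the ratio of all fibroblasts was not tested. Fibroblasts held 63.4% of all Thbd UMIs in CLP plus stimulation, against 32.9% in CLP, 32.4% in sham and 32.7% in control. An endothelial cell with a Thbd UMI was met in 18.7% of cells in CLP plus stimulation, 46.3% in CLP, 47.5% in sham and 27.9% in control, at median depths of 4114, 3750, 3512 and 2256 UMIs. Thinned to 1000 UMIs, the shares were 5.95%, 16.1%, 17.6% and 12.4%. T or NK cells had Thbd UMIs in 1.67% of cells in CLP plus stimulation and 1.39% in sham, at median depths of 4655 and 5067 UMIs. Pericytes had no Thbd UMI in CLP plus stimulation (65 cells), against 63.5 CPM in CLP (23 UMIs), 106 in sham (29 UMIs) and 28.0 in control (11 UMIs). Endothelial cells were 5.06% of the cells in CLP plus stimulation, against 21.2%, 16.8% and 19.3% in CLP, sham and control. The part of endothelial RNA in these pericyte counts was not tested.

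Procr (chr2:155751117-155755471, plus strand), which presents protein C to the thrombin-thrombomodulin complex, also went opposite ways in these classes, here in CLP over sham. Fibroblasts had 19.1 CPM in CLP plus stimulation, 24.2 in CLP, 7.94 in sham and 7.56 in control. Both septic libraries were above both others, with log2 ratios of 1.60 (1.30 to 1.93) for CLP over sham and 1.26 (0.91 to 1.63) for CLP plus stimulation over sham. Adventitial fibroblasts (26.3, 30.9, 7.96 and 8.0 CPM) and fibroblasts with no adventitial marker (16, 21.3, 9.19 and 8.62 CPM) also had both septic libraries above both others. A Procr UMI was found in 10.7%, 13%, 4.84% and 2.91% of fibroblasts, and in none of the 120, 12, 72 and 67 T or NK cells. Median depths were 8478, 8805, 7720 and 4508.5 UMIs in fibroblasts and 4655, 5239, 5067 and 3028 in T or NK cells. Endothelial cells had 13.8 CPM in CLP plus stimulation, 7.12 in CLP, 18.4 in sham and 8.19 in control. Sham was the highest of these libraries, past 2-fold over control at 1.16 (0.73 to 1.61), and CLP over sham was -1.36 (-1.83 to -0.92). The endothelial values rest on few cells, since 1 sham cell held 45 of the 133 UMIs in sham and 1 CLP cell 17 of the 62 in CLP. Without the sham cell both ratios came inside 2-fold, at 0.59 for sham over control and -0.79 for CLP over sham. Without the top cell of each library they were 0.68 and -1.25. A Procr UMI was found in 4.43% of endothelial cells in CLP plus stimulation, 2.50% (1.80% to 3.37%) in CLP, 3.31% (2.44% to 4.4%) in sham and 2.14% in control. With 1 more marker required for the gate, 7 UMIs in 358 cells of CLP and 2 in 215 cells of sham remained, the ratio turned to 0.80, and sham over control turned to -1.31. Macrophages had only 1.46, 2.98, 1.31 and 2.60 CPM, with CLP over sham at 1.17 (0.40 to 1.99) on 37 and 24 UMIs.

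Vwf (chr6:125546774-125686679, plus strand), the platelet tether stored in endothelial granules, was concentrated in a small number of cells. Endothelial cells had 41.0 CPM in CLP plus stimulation, 100 in CLP, 61.0 in sham and 89.5 in control. CLP plus stimulation over CLP was -1.28 (-1.61 to -0.97) and CLP over sham was 0.71 (0.55 to 0.88). In CLP, 1 cell held 108 of the 870 endothelial Vwf UMIs. Without that cell the ratios were -1.09 and 0.53. The endocardial subclass, the lining of the heart chambers, had 314 CPM in CLP plus stimulation (5 cells), 3105 in CLP (29 cells), 942 in sham (58 cells) and 1569 in control (79 cells). In CLP these 29 cells held 40.4% of all Vwf UMIs of the library, and endocardial CLP over sham was 1.72 (1.48 to 1.97). After thinning to 1000 UMIs, 1 endocardial cell held 20 of 101 Vwf UMIs in CLP and 1 held 13 of 60 in sham. Capillary cells, the bulk of the class, had 20.6, 29.4, 17.2 and 19.3 CPM, and in them CLP plus stimulation over CLP was -0.50, inside 2-fold. Fibroblasts had few Vwf UMIs, with 2 in CLP plus stimulation, 40 in CLP, 20 in sham and 16 in control, and their summed endothelial markers were 48.4, 98.1, 122 and 128 CPM; their part in this was not tested. A Vwf UMI was present in 6.65% of endothelial cells in CLP plus stimulation, 9.63% in CLP, 9.51% in sham and 8.65% in control. The corresponding share was 1 of 120 T or NK cells in CLP plus stimulation and 0 in the other libraries. Summed platelet markers in endothelial cells were 2.23, 6.20, 11.1 and 8.82 CPM, with Tubb1 at 0 in CLP plus stimulation, CLP and sham; their part in the Vwf values was not tested.

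Macrophages carried a second, low Vwf signal in the libraries without sepsis. It was 0.94 CPM in CLP plus stimulation (18 UMIs), 2.90 in CLP (36), 10.02 in sham (183) and 8.80 in control (125). CLP over sham was -1.77 (-2.35 to -1.27) and CLP plus stimulation over CLP -1.60 (-2.53 to -0.77). These UMIs were spread over 18, 30, 153 and 114 cells, which is 0.748%, 2.05%, 5.13% and 3.02% of macrophages at median depths of 7730.5, 7567, 5801 and 3435 UMIs. B cells, at 3838, 2899, 3228.5 and 2027 UMIs, had a Vwf UMI in 0 of 52, 0 of 18, 1 of 120 and 1 of 132 cells. Summed endothelial markers in macrophages were 32.2, 53.0, 38.2 and 55.6 CPM and platelet markers 12, 4.10, 7.99 and 4.01 CPM, and the part of either in the Vwf values was not tested.

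**Figure D4:**
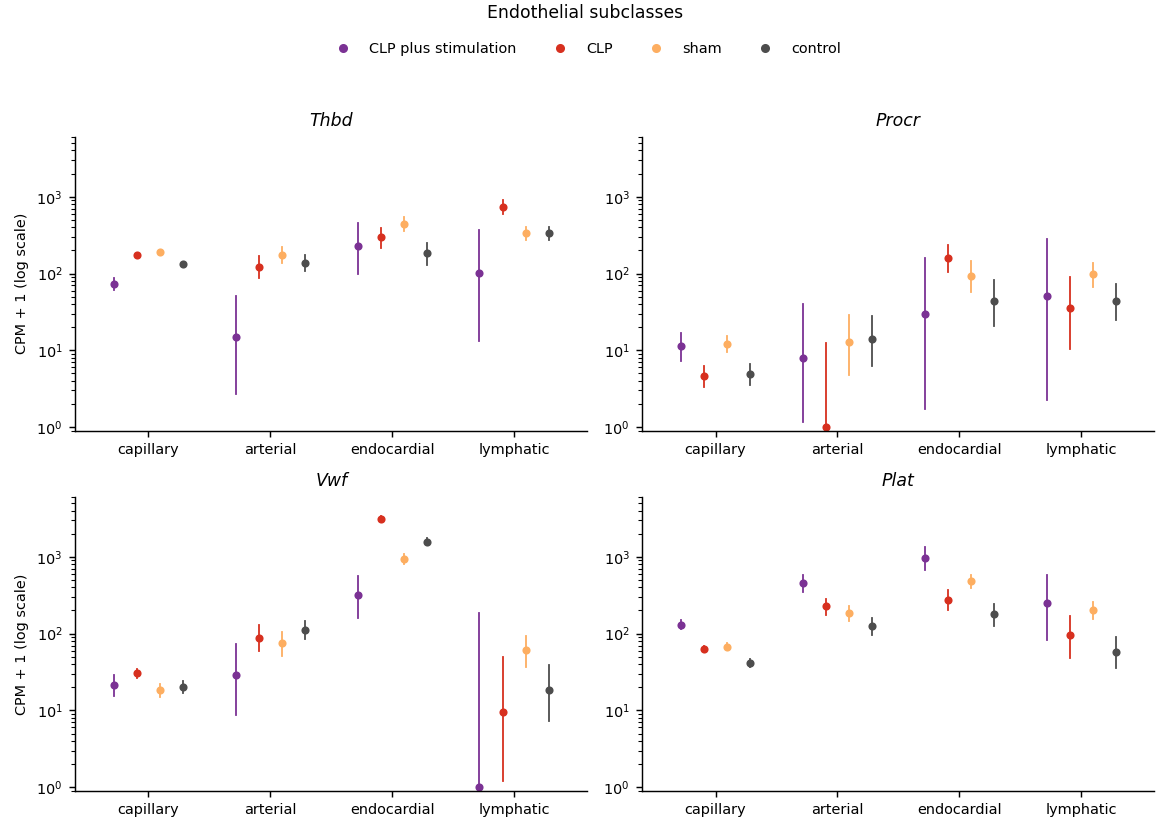
Thbd, Procr, Vwf and Plat in 4 endothelial subclasses as CPM + 1 on a log axis, with 1 point per library and 95% Poisson counting intervals; the endocardial and lymphatic points of CLP plus stimulation rest on 5 and 6 cells. Endocardial Vwf is at 3105 CPM in CLP, and Plat is highest in CLP plus stimulation in all 4 subclasses.

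Plat (chr8:22757727-22782844, plus strand), the tissue-type plasminogen activator, was higher in endothelial cells and lower in fibroblasts of CLP plus stimulation. Endothelial cells had 197 CPM in CLP plus stimulation, 79.1 in CLP, 93.6 in sham and 53.9 in control. CLP plus stimulation was past 2-fold over CLP, at 1.32 (1.14 to 1.49), and over sham, at 1.08 (0.90 to 1.25). It was highest in capillary cells (130, 62.0, 66.7 and 40.8 CPM) and in arterial cells (455, 225, 182 and 123 CPM). In capillary cells alone the ratio over sham was 0.96, inside 2-fold, and without the 1 cell of CLP plus stimulation that held 57 of the 443 endothelial UMIs it was 0.88. A group of 4 cells with venous markers held 65 of the 443 endothelial Plat UMIs in CLP plus stimulation. The share of endothelial cells with a Plat UMI was 29.8%, 24.7%, 22.9% and 12.7%, and 13.8%, 7.89%, 7.09% and 4.75% after thinning to 1000 UMIs. Pericytes had 356 CPM in CLP plus stimulation, 218 in CLP, 193 in sham and 137 in control, inside 2-fold in each comparison. In the glial class Plat was at 993 CPM (24 UMIs in 6 cells), 218, 180 and 157. Fibroblasts went the other way, with 48.1 CPM in CLP plus stimulation, 76.1 in CLP, 116 in sham and 88.5 in control. CLP plus stimulation over sham was -1.27 (-1.42 to -1.12) there, and -0.96 with TMM factors. Macrophages had 3.39, 2.33, 1.59 and 0.915 CPM, with CLP plus stimulation over sham at 1.08 (0.44 to 1.78) at 0.38 under the stricter gate, on 15 and 10 UMIs, and at 0.71 without the 1 cell of CLP plus stimulation that held 15 of the 65 UMIs. Over all cells Plat was at 29.2, 52.9, 53.3 and 45.1 CPM, where the endothelial class makes up 5.06%, 21.2%, 16.8% and 19.3% of cells.

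Plau (chr14:20836660-20843385, plus strand), the urokinase-type activator, was a macrophage transcript that was low in both septic libraries. Macrophages had 5.53 CPM in CLP plus stimulation, 10.4 in CLP, 40.1 in sham and 30.1 in control. CLP over sham was -1.94 (-2.23 to -1.68) and CLP plus stimulation over sham -2.85 (-3.16 to -2.56), while CLP plus stimulation over CLP was inside 2-fold at -0.91 (-1.29 to -0.52). That last ratio was past 2-fold under the stricter gate, at -1.47 on 42 and 39 UMIs. It was also past 2-fold with classes from clusters (-1.24) and in macrophages with no resident marker (-1.22). Macrophages with at least 2 resident markers had 4.55, 6.66, 37.0 and 25.8 CPM, and those with none had 5.93, 13.8, 44.3 and 37.7 CPM, so the order held whether or not the markers were present. A Plau UMI was found in 3.70% of macrophages in CLP plus stimulation, 6.98% in CLP, 17.4% in sham and 9.28% in control. After thinning to 1000 UMIs the shares were 0.514%, 0.836%, 3.61% and 2.70%. None of the 120, 12, 72 and 67 T or NK cells had a Plau UMI, and for the 120 cells a count of 0 allows a share of cells with a UMI of up to 2.50%, which does not limit cells that express the gene. Fibroblasts had 2.27, 2.40, 6.41 and 4.09 CPM, with CLP over sham at -1.41 (-1.99 to -0.87). Summed macrophage markers in fibroblasts were 266, 242, 362 and 371 CPM, and their part in this was not tested.

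F13a1 (chr13:36867178-37050244, minus strand), whose product joins fibrin strands, is a known transcript of mouse monocytes and macrophages. Its gene overlaps Gm49144 and Gm30489 on the other strand. Macrophages had 532 CPM in CLP plus stimulation, 981 in CLP, 872 in sham and 874 in control, and held 75.5% to 88.5% of the gene's UMIs. The stimulated library was lowest, with CLP plus stimulation over CLP at -0.88 (-0.92 to -0.84), inside 2-fold, and CLP over sham at 0.17 (0.14 to 0.20). Macrophages were also split by resident markers, a choice made after values had been seen. Cells with at least 2 of Timd4, Lyve1 and Folr2 had 634 CPM in CLP plus stimulation, 1276 in CLP, 1305 in sham and 1296 in control. Cells with none of them had 463, 686, 221 and 280 CPM, and CLP over sham was 1.64 (1.54 to 1.74) and CLP plus stimulation over sham 1.07 (0.97 to 1.17). Marked cells were 4.62% of all cells in CLP plus stimulation, 4.39% in CLP, 16.5% in sham and 10.8% in control. Unmarked cells were 16.3%, 9.27%, 11% and 9.32%. Whether the unmarked cells were of the same kinds in each library was not tested. Monocyte levels were 318, 319, 317 and 247 CPM, on 609, 112, 108 and 22 UMIs, and 1 CLP cell held 34 of the 112. Summed monocyte markers in macrophages were 77.7, 126, 77.2 and 64.6 CPM. F13a1 UMIs were present in 78.1%, 89.0%, 78.2% and 73.1% of macrophages, against 7.69%, 5.56%, 16.7% and 13.6% of B cells. The depths of both classes are those given for Vwf.

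Other genes of clotting and fibrinolysis were taken from a list of 51. Of these, 25 were measured in endothelial cells in CLP over sham, with 3 higher and 2 lower, where 11.9% of all genes passed 2-fold, and 24 in CLP plus stimulation over CLP, with 6 higher and 7 lower, where 28.0% passed. Entpd1, an ectoenzyme that removes platelet-activating ADP, had 402 CPM in endothelial cells of CLP plus stimulation, 147 in CLP, 46.7 in sham and 56.4 in control, with CLP over sham at 1.66 (1.48 to 1.83). Plaur, the urokinase receptor, had 710 CPM in CLP plus stimulation, 43.6 in CLP, 20.2 in sham and 15.6 in control, and was 4.03 (3.87 to 4.19) over CLP and 1.11 (0.83 to 1.39) for CLP over sham. F2rl1, a protease-activated receptor, was -1.97 (-3.50 to -0.79) for CLP over sham on 7 and 24 UMIs. Mmrn1, the platelet and endothelial protein multimerin, was lower in CLP than sham, at -1.26 (-1.47 to -1.06), and higher in CLP plus stimulation than CLP, at 1.46 (1.19 to 1.72). Mmrn1 serves here also as a lymphatic marker. The lymphatic subclass had 6 cells in CLP plus stimulation, 27 in CLP and 28 in sham. Their mean depths were 3319.5, 4272 and 11405 UMIs. The part of these cells in the Mmrn1 values was not tested. Selp, or P-selectin, which rolls leukocytes and serves here also as a venous marker, was 2.51 (2.29 to 2.73) over CLP. F8, the cofactor of factor IX, was -2.57 over CLP on 1 and 34 UMIs. Anxa3, an annexin, was -1.92 (-2.15 to -1.71), and Plgrkt, a plasminogen receptor, was -1.76 (-2.28 to -1.30).

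In macrophages 24 of the 51 were measured in CLP over sham, with 7 higher and 4 lower (23.3% of all genes passed), and 25 in CLP plus stimulation over CLP, with 4 higher and 4 lower (17.5%). Serpinb2, an inhibitor of the activators, had 23.9 CPM in CLP plus stimulation, 5.71 in CLP, 0.33 in sham and 0.49 in control, with log2 ratios of 2.05 (1.70 to 2.44) over CLP and 4.01 (2.93 to 5.61) for CLP over sham. Macrophage Plaur had 322, 105, 42.9 and 42.5 CPM, and its ratio of CLP plus stimulation over CLP was 1.62 (1.54 to 1.71). For CLP over sham, Mmrn1 was 2.53 on 25 and 6 UMIs and Selp 2.49 on 32 and 8 UMIs. F7, the partner of tissue factor, reached 2.55 over CLP on 22 and 2 UMIs, and Anxa3 was -1.97 (-2.10 to -1.84). Mmrn1 and Mmrn2 were -2.39 and -1.31 over CLP, on 7 and 25 and on 16 and 26 UMIs. Entpd1 was at 19.6, 16.4, 83.7 and 79.7 CPM, with CLP over sham at -2.35 (-2.57 to -2.14), opposite to its direction in endothelial cells. Ptgs1, the constitutive cyclooxygenase, was -2.14 (-2.37 to -1.93), and Serpinf2, the plasmin inhibitor, -1.99 on 8 and 49 UMIs.

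In fibroblasts 25 were measured in CLP over sham, with 2 higher and 3 lower (11.3% of all genes passed), and 27 in CLP plus stimulation over CLP, with 5 higher and 5 lower (21.9%). Fibrinogen chains were also counted. Fgb had 52 UMIs in CLP plus stimulation and none in CLP, sham or control, and Fgg had 36 UMIs in CLP plus stimulation and 5 in CLP. How many cells held these UMIs was not counted, and the part of RNA from other cells was not tested. Fibroblast Plaur had 66.7, 19.2, 15.5 and 10.7 CPM, at 1.80 (1.61 to 1.99) over CLP. Mrc2, a collagen receptor that associates with the urokinase receptor, had 27.7, 80.1, 184 and 150 CPM, with CLP over sham at -1.20 (-1.30 to -1.11) and CLP plus stimulation over CLP at -1.53 (-1.72 to -1.34). Anxa3 was -1.11 (-1.22 to -1.0) and -1.67 (-1.90 to -1.46) in the same comparisons. Mmrn1 was 3.61 for CLP over sham on 24 and 1 UMIs and -2.44 for CLP plus stimulation over CLP on 2 and 24 UMIs. F2rl1 was -3.03 for CLP over sham on 4 and 27 UMIs, and Selp 1.32 on 48 and 14 UMIs.

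**Figure D5:**
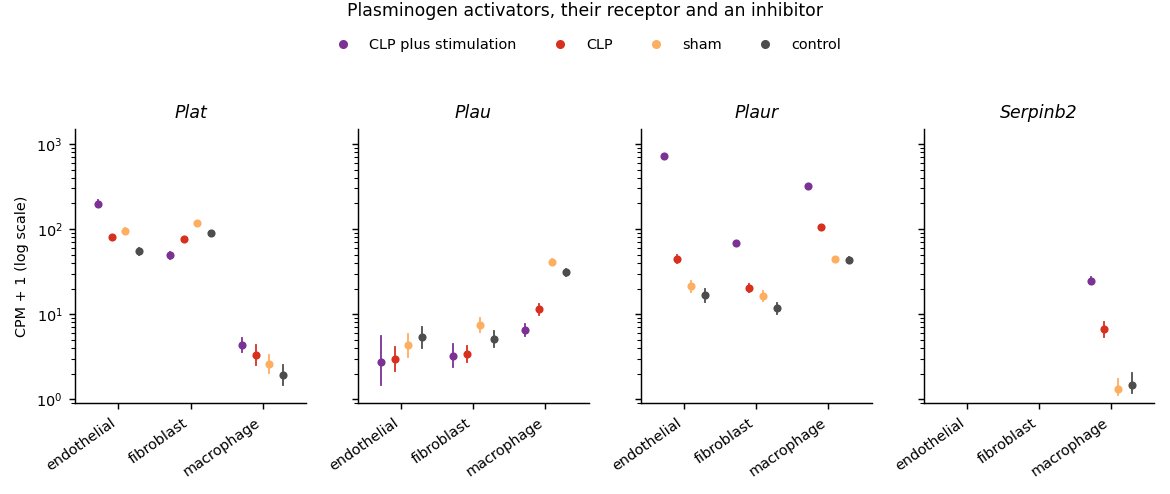
Plasminogen activators (Plat, Plau), the urokinase receptor (Plaur) and an inhibitor (Serpinb2) in 3 classes as CPM + 1 on a log axis. Each library has 1 point, with 95% Poisson counting intervals. Serpinb2 had under 20 UMIs in endothelial cells and in fibroblasts and is drawn for macrophages only. Plaur in endothelial cells is at 710 CPM in CLP plus stimulation against 43.6 in CLP, and Plau in macrophages at 5.53 and 10.4 CPM against 40.1 in sham.

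The genes whose levels ran most alike were sought over 28 combinations of class and library with at least 100 cells, among 6804 genes. Pearson's r of log2 levels describes the likeness only, since the points share libraries, cell classes and depth. Plat was most like Spry1 (r = 0.963), an inhibitor of receptor tyrosine kinase signalling. F13a1 was most like Ccl9 (0.961) and Aif1 (0.928), F10 like Gpr141 (0.953) and Chil3 (0.951), and Chil3 is among the monocyte markers of the gate. Vwf ran with Tmem88 (0.92) and Thbd with Igfbp3 (0.918). F3, Tfpi, Procr and Plau had closest genes at 0.873 (Tnfaip6), 0.893 (Phldb1), 0.850 (Nsg1) and 0.814 (Tfe3).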

How the data were processed

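Mouse hearts of 4 groups were profiled as single cells, and per the labels' protocols the libraries were Chromium Single cell 3′ v3. For each library the authors deposited a matrix of unnormalized UMI counts, genes by barcodes. Its file header names Cell Ranger 5.0.0. STAR and the mm10 build are named in the submitters' processing notes. Members were matched by symbol, and coordinates come from GENCODE vM21 on GRCm38.

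Barcodes with at least 500 UMIs, at least 200 genes and at most 20% mitochondrial UMIs were kept, and Scrublet in scanpy 1.11.5 removed the highest-scored 0.8% per 1000 barcodes as doublets (6.94% or more of each library). Clusters came from 2000 variable genes, 30 components, 20 neighbours and leidenalg 0.10.2 at resolution 1, with no integration. Cells were gated by markers as the report describes. Counts were summed per class and library. CPM carries exact Poisson intervals, shares exact binomial intervals and log2 ratios exact conditional binomial intervals, at 95% and for counting error only. Each group is 1 library, so cells are not replicates and no test was made. Alternatives were TMM factors (edgeR 4.0.16), median-of-ratios factors (DESeq2 1.42.0), log2 of CPM + 5, no count minimum, thinning to 1000 UMIs, a gate with 1 more marker, classes from clusters, and other filters on cells. The code for log2 ratios and their intervals was tested on simulated counts. The gate was not part of that test.

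The 9 genes and all gene lists were chosen with earlier results of these data known. The rule named every member, and of the 51 other genes those past 2-fold in endothelial cells, fibroblasts and macrophages, at most 3 in each direction. A gene counted in that list is not reported here. The gate's thresholds, the resident split, the capillary-only values, the values without a gene's top cell and the promoter letters were chosen after the data had been seen.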

Additional observations from a re-analysis of the deposited data

Results flagged for a closer look

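Plat and Procr stood on opposite sides in different cell classes under the same comparison. For CLP plus stimulation over sham, the log2 ratio of Plat was 1.08 in endothelial cells, 1.08 in macrophages and -1.27 in fibroblasts. For CLP over sham, the log2 ratio of Procr was 1.60 in fibroblasts, 1.17 in macrophages and -1.36 in endothelial cells. The endothelial value was 0.80 under the stricter gate, on 7 and 2 UMIs, and -0.79 without 1 sham cell that held 45 of 133 UMIs. The macrophage value was 0.34 with log2 of CPM + 5. Under the stricter gate Plat was at 0.81 in endothelial cells and 0.38 in macrophages. With 1 library per group, the difference between classes was not tested in either case.

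Cells that passed no gate carried F10 in CLP plus stimulation, at 86.5 CPM against 16.7 in CLP, 8.43 in sham and 2.54 in control. They were 38.4% of the cells kept in CLP plus stimulation, 23.6% in CLP, 15.8% in sham and 19.7% in control, and held 37.2%, 39.7%, 43.5% and 31.2% of the F10 UMIs.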

How the results depend on the processing

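Counts of members past 2-fold rest on 7 to 9 measured genes, and on 5 or 6 in the classes under thinning and the stricter gate where given here, so a single gene near 2-fold moves them. With log2 of CPM + 5 the count in CLP over sham was 0 in endothelial cells, 1 in fibroblasts, 1 in macrophages and 1 over all cells, against 2, 2, 3 and 2. In CLP plus stimulation over CLP it was 0 in fibroblasts and 1 in macrophages, against 2 and 4. In CLP plus stimulation over sham it was 1 in fibroblasts and 3 in macrophages, against 4 and 5. In sham over control it was 0 in endothelial cells and 0 over all cells, against 1 and 1. Thinning to 1000 UMIs gave 1 of 6 for fibroblasts in CLP over sham, 1 of 5 for macrophages in CLP plus stimulation over CLP, 2 of 6 for fibroblasts in CLP plus stimulation over sham, and 0 of 6 for endothelial cells and 0 of 9 for all cells in sham over control. The stricter gate gave 1 of 5 in endothelial cells and 1 of 5 in fibroblasts for CLP over sham, 0 of 6 in fibroblasts for CLP plus stimulation over CLP and 1 of 6 in macrophages for sham over control. Classes from clusters gave 5 in endothelial cells for CLP plus stimulation over CLP and 0 for sham over control. Without a count minimum, endothelial cells had 4 in CLP plus stimulation over sham and 3 in sham over control, and fibroblasts had 1 in sham over control. Sham over control in macrophages was 1 with TMM factors, 1 with median-of-ratios factors and 1 without doublet removal, against 0. Among 99 single ratios, 2 past 2-fold turned their sign under the stricter gate, Procr in endothelial cells for CLP over sham, at 0.80, and for sham over control, at -1.31, on 2 to 14 UMIs a library; the cause was not tested. No ratio past 2-fold turned its sign under the other alternatives. The number that changed side of 2-fold was 7 with TMM factors, 7 with median-of-ratios factors, 16 with log2 of CPM + 5, 14 with thinning, 17 with the stricter gate, 9 with clusters, 3 without doublet removal, 1 with at most 10% mitochondrial UMIs and 0 with at least 1000 UMIs per cell. It was 5 without a gene's top cell in each library. No paired analysis was possible because each group is 1 library. Low counts limit F3, Plau, F10 and Procr outside their main classes.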

Other observations

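Neutrophils held a further set of clotting and fibrinolysis genes, named here after their values had been seen. Entpd1 was at 49.6 CPM in CLP plus stimulation, 73.0 in CLP, 389 in sham and 619 in control, and F5, the cofactor of factor X, at 32, 16.2, 60.4 and 77.3 CPM. Plaur was high in all 4 libraries, at 1135, 763, 1043 and 837 CPM. Anxa3 was at 171 and 149 CPM in the libraries with sepsis, CLP plus stimulation and CLP, against 15.5 in sham and 13.7 in control.

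Mesothelial-marked cells, 10 of them in CLP plus stimulation and 2 in control, had 18 F3 UMIs in CLP plus stimulation (119 CPM) and none in control.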
